A study of Rattus norvegicus with 26 samples.

Results

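The miRNAs described here are those of rat liver 6 h after the removal of either 1/3 or 2/3 of the organ, read against normal liver. The 5 arrays titled 1/3PH 6H (2 arrays) or 2/3PH 6H (3 arrays) were pooled and set against 3 arrays of normal liver, and membership required that the scanner's software called a miRNA detected throughout 1 side or the other, on all 3 or on all 5 arrays. Of 677 miRNAs on the array, 127 were members. The series holds 26 arrays, 1 rat per array, from male Sprague-Dawley rats at 6, 12, 24 and 36 h after partial hepatectomy (PH). In 1/3 PH the left lateral lobe was removed, and in 2/3 PH a larger share of the organ. Normal livers came from rats without PH, although 1 characteristic of their records reads sham. Tissue came from right lobes harvested between 8 and 12 in the morning, and total RNA of the whole tissue was hybridized, so that hepatocytes, endothelium, stellate cells and blood were read together. In such tissue, fewer cells of a type and less RNA per cell cannot be told apart.

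After PH the remaining hepatocytes leave their resting state, and the first hours, called the priming phase, carry cytokine signals and the induction of immediate early genes before DNA is copied. A miRNA guides a silencing complex to messenger RNAs, mostly through its seed, the bases 2 to 8 at its 5′ end, so miRNAs with the same seed can bind many of the same sites. The miR-29 family is known for targeting collagens and other matrix genes, miR-101 for targeting the methyltransferase Ezh2, and miR-122 is the miRNA that marks hepatocytes.

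The sequences below are those of the miRNAs on which the comparison with normal liver turned, with capitals marking the seed. The first 3 share a seed and differ only downstream of it, as do the pair of miR-101, the pair of miR-19 and the pair of miR-30.
miR-29a: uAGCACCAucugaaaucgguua
miR-29b: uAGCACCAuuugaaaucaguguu
miR-29c: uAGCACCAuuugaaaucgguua
miR-101a: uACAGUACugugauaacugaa
miR-101b: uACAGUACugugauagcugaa
miR-19a: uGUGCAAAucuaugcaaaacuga
miR-19b: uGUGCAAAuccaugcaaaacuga
miR-30a: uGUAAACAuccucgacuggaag
miR-30e: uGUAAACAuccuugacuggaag
miR-652: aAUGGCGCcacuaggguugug
miR-500: aAUGCACCugggcaaggguuca
let-7a: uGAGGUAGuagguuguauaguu
let-7e: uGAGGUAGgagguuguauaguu
A further set is shown for the comparisons of 6 h with the later hours, and within it miR-106b and miR-93 again share a seed, as do miR-195, miR-497 and miR-15b.
miR-106b: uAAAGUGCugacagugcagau
miR-93: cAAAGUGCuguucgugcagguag
miR-34a: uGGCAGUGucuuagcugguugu
miR-195: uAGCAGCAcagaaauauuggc
miR-497: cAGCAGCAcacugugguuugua
miR-15b: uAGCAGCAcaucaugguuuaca
miR-10a-5p: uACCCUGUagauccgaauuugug
Several of these lie together in the genome (GRCr8). One copy of miR-29b, at chr13:109098882-109098904, lies beside miR-29c at chr13:109099412-109099433, and the other copy, at chr4:60618342-60618364, beside miR-29a at chr4:60617968-60617989. miR-30e (chr5:139637504-139637525) and a copy of miR-30c (chr5:139634505-139634527) lie within Nfyc. miR-101b (chr1:236273982-236274002) lies within Rcl1, and miR-106b (chr12:22157103-22157123) and miR-93 (chr12:22156894-22156916) lie within Mcm7, a gene of the DNA replication helicase. miR-652 (chrX:111140129-111140149) lies within Tmem164 and miR-500 (chrX:17930695-17930716) within Clcn5. The 127 members carried 77 different seeds, leaving aside 22 without a matched sequence, and 14 seeds were shared by at least 2 members (42 members in all).

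All 127 members were detected on all 3 normal arrays, and none entered through the 6 h side alone. At 6 h, 102 of them were detected on all 5 arrays, and the other 25 on 1 to 4 of the 5. The 5 seen on a single array at 6 h were miR-96, miR-200a, miR-331, miR-455* and miR-3573-3p, named because they were few and after their values were seen. A further 20 miRNAs stood just outside the rule, detected on 2 normal arrays or on 4 at 6 h, and 493 miRNAs were detected on none of the 8 arrays.

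Fewer miRNAs were detected at 6 h than in normal liver. Normal livers had 140, 151 and 151 detected miRNAs. The livers at 6 h had 128 and 127 after 1/3 PH and 133, 118 and 139 after 2/3 PH. Every array at 6 h lay below every normal array. Counts below all normal arrays were not particular to 6 h. They were 129, 91, 155, 136, 137 and 142 at 12 h and 131, 139, 144, 147, 130 and 131 at 24 h. At 36 h they were 138, 132, 138, 152, 143 and 135. The counts of 128, 127 and 118 came from the 3 arrays with many non-uniform spots described in the next paragraph. Without them the counts at 6 h were 133 and 139. The means were 147.3 (SD 6.35) and 129.0 (SD 7.78), a difference of -18.3 miRNAs, given as a description with no test, since detection calls on these arrays also chose the members. Summed signal was 73615.4, 67215.6 and 95462.7 in normal liver, and at 6 h 87568.5 and 72076.6 after 1/3 PH and 68373.9, 71432.0 and 71752.7 after 2/3 PH, so the groups overlapped (exact permutation p 0.5). The lowest signal that stood well above background, in log2 units, was 3.47, 2.67 and 3.01 on the normal arrays and 3.52, 4.10, 3.46, 4.33 and 2.96 at 6 h (exact permutation p 0.214). The part of this floor in the count of detected miRNAs was not tested.

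Some arrays at 6 h stood apart in spot quality. Feature Extraction marked 194 and 464 spots as non-uniform on the 1/3 PH arrays and 177 on replicate 2 of 2/3 PH, while no other array of the 26 had over 13. All 3 lay on slide 1, together with normal replicate 1 and 2/3PH 6H replicate 1, while 2/3PH 6H replicate 3 and normal replicate 2 shared slide 2. The results below are therefore given with and without these 3 arrays, or within slides, where that changes them and the design allows it. Both 1/3 PH arrays at 6 h are among the 3, so no result after 1/3 PH or between the operations can be given without them. The 6 h side without these 3 arrays is replicates 1 and 3 of 2/3 PH alone. At 12 h, 1/3PH 12H replicate 2 was dim, with 91 detected miRNAs and a summed signal of 18195.8.

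**Figure D1:**
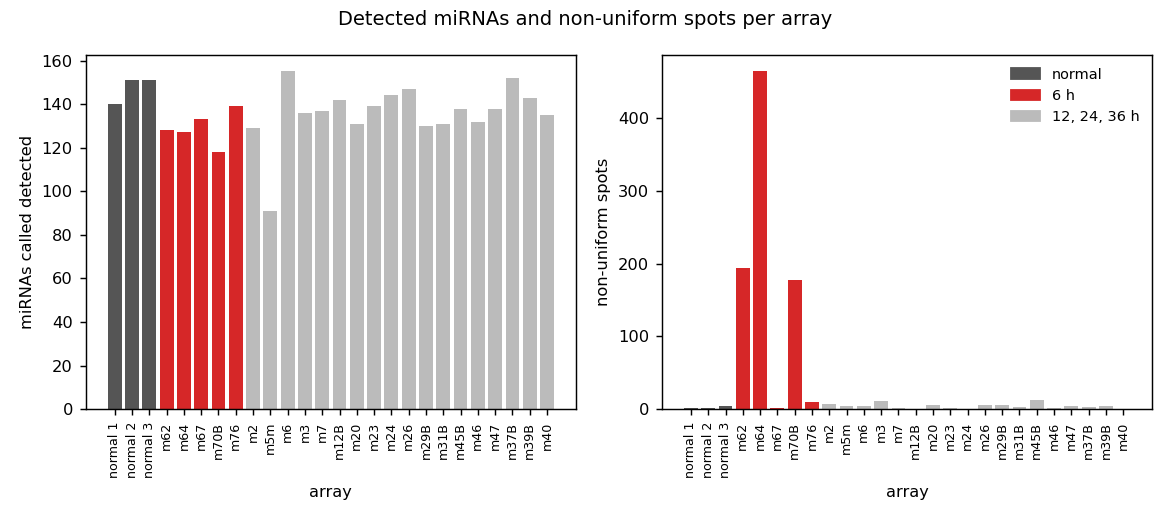
Bars give, for each of the 26 arrays, the number of miRNAs called detected (left) and the number of spots marked non-uniform (right), with normal liver dark grey, 6 h red and later hours light grey. The arrays at 6 h lie below the normal ones on the left, as do many at later hours, and 3 arrays at 6 h stand out on the right.

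The tissue read as liver. miR-122, which marks hepatocytes, had log2 signals of 15.30, 15.03 and 15.24 in normal liver and 15.19, 15.27, 15.25, 15.37 and 15.20 at 6 h, with the groups overlapping. All 9 miRNAs of the liver-abundant list were members. Markers of skeletal muscle (0 of 4), pancreas (0 of 3) and brain (0 of 2) were detected on none of the 8 arrays. Of the 2 endothelial miRNAs, miR-126 was detected on 8 of 8 arrays and was a member, while miR-126* was detected on 2 and was not. Of the other cells of the liver, 5 of 7 leukocyte miRNAs and 4 of 5 stellate and smooth muscle miRNAs were members. So were 2 of 5 miRNAs of the miR-200 family, found in biliary epithelium. miR-145 of smooth muscle and miR-144 of red cells were detected on 0 of 8 arrays, while miR-451 of red cells was detected on 8 of 8.

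Against normal liver, the 4 miRNAs with the smallest p at 6 h under this scaling, miR-29b, miR-30e, miR-101b and miR-101a, were lower. On the higher side, miR-652 had the smallest p. No member passed the adjusted test: 0 of 144 tested miRNAs (0.0%) had an adjusted p under 0.05, with none higher and none lower, and the lowest adjusted p was 0.0953. At an unadjusted p under 0.05 there were 15 (10.4%), of which 1 (0.694%) was higher and 14 (9.72%) lower. Of these 14, miR-19a and miR-320, named after their values were seen, were not detected on every array at 6 h and had entered through the normal side, which left 1 higher and 12 lower among the 102 miRNAs detected on all 8 arrays. The 144 were the 127 members and 17 miRNAs tested because of other arrays of the series. p-values here measure the spread between rats of a group. With 1 array per rat, that spread also holds differences between arrays, slides and scan days.

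miR-29b, which targets collagen and other matrix mRNAs, had the smallest p. Its log2 signals were 7.62, 8.56 and 8.15 in normal liver, 7.67 and 7.45 after 1/3 PH and 7.38, 6.98 and 7.25 after 2/3 PH. At 6 h, 4 of the 5 arrays lay below every normal array, and normal replicate 1 was itself the lowest of its group. The log2 difference was -0.76 (SE 0.188, 95% interval -1.16 to -0.37, limma p 0.000662, adjusted p 0.0953), or 0.590-fold. miR-29c read 8.18, 8.36 and 8.40 in normal liver against 8.17, 7.88, 7.88, 7.41 and 7.60, with all 5 lower (-0.53, SE 0.211, limma p 0.0216, adjusted p 0.345). The family member miR-29a, whose normal values were 10.28, 10.06 and 10.19, overlapped with 6 h at 10.20, 10.16, 10.18, 9.94 and 9.71. Its difference was -0.14 (SE 0.203, limma p 0.503), turning to 0.28 with the percentile over all probes, and it was named after its values were seen. The 3 shared the seed AGCACCA and had a median difference of -0.53. That median was below zero under every scaling tried, with 1 of the 3 members at zero under quantile scaling and 1 higher under the percentile over all probes.

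The pair with the seed ACAGUAC was lower on 4 of 5 arrays than on every normal array. miR-101b, within the gene Rcl1, read 7.91, 8.35 and 8.44 in normal liver and 7.96, 7.77, 7.65, 7.36 and 7.88 at 6 h. miR-101a read 5.17, 5.87 and 5.63 against 5.12, 4.84, 4.91, 4.57 and 5.32. The first array at 6 h overlapped with normal liver for miR-101b, and the last for miR-101a. The log2 differences were -0.51 for miR-101b (SE 0.144, limma p 0.00224, adjusted p 0.108, 0.703-fold) and -0.60 for miR-101a (SE 0.184, limma p 0.00382, adjusted p 0.138, 0.658-fold). Under the normexp background correction miR-101a turned to 0.20.

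miR-30e, of a family that is abundant in epithelia, read 6.12, 6.45 and 6.44 in normal liver and 6.16, 5.92, 5.92, 5.75 and 5.94 at 6 h. Here too, 4 of the 5 arrays lay below all normal arrays. The difference was -0.40 (SE 0.113, limma p 0.00215, adjusted p 0.108, 0.758-fold), and it turned to 0.15 under normexp and 0.02 under the percentile over all probes. All 5 members of the miR-30 family were lower (median -0.22, range -0.40 to -0.12), but all 5 were higher under normexp (median 0.15) and under the percentile over all probes (median 0.20). miR-19b, an oncogenic miRNA of the miR-17 to miR-92 cluster, read 8.78, 9.14 and 9.18 in normal liver against 8.88, 8.60, 8.59, 8.31 and 8.54. Again 4 of 5 were lower than every normal array, with the first 1/3 PH array inside the normal range (-0.45, SE 0.168, limma p 0.0150, adjusted p 0.345). miR-19a, with the same seed, was detected on 4 of 5 arrays at 6 h and read 3.80, 5.38 and 5.30 against 4.45, 4.10, 3.85, 4.33 and 4.50 (-0.58, turning to 0.24 under normexp). Its values on the second array of each operation at 6 h were the floors of those arrays, so its difference rests in part on imposed values. It entered through the normal side, where it was higher, so no test of it is given, and it was named after its values were seen.

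miR-193 and miR-150 separated completely from normal liver. miR-193 read 6.92, 7.42 and 7.34 in normal liver and 6.80, 6.74, 6.39, 6.26 and 6.89 at 6 h (-0.61, SE 0.243, limma p 0.0212, adjusted p 0.345). miR-150, abundant in mature lymphocytes, read 4.64, 4.78 and 4.77 against 4.31, 4.19, 4.62, 4.33 and 4.37 (-0.37, SE 0.140, limma p 0.0170, adjusted p 0.345), with replicate 2 of 2/3 PH at its floor, and turned to 0.34 under normexp and 0.06 under the percentile over all probes. Among the 102 miRNAs detected on all 8 arrays, 5 (4.9%) had every array at 6 h below every normal array, and 0 (0.0%) had every array above. The 5 were miR-29c, miR-150, miR-193, miR-30a and miR-140*, the last 2 named after their values were seen. miR-30a read 7.41, 7.54 and 7.63 against 7.24, 7.39, 7.36, 7.24 and 7.28 (-0.22, limma p 0.0409, adjusted p 0.420), and turned to 0.20 with the percentile over all probes and 0.04 under normexp.

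On the higher side, miR-652, within Tmem164, read 5.66, 4.92 and 5.16 in normal liver and 5.86, 5.86, 5.90, 5.85 and 5.40 at 6 h. Of the 5 arrays, 4 lay above every normal array. The log2 difference was 0.52 (SE 0.201, 95% interval 0.10 to 0.95, limma p 0.0171, adjusted p 0.345, 1.44-fold). miR-500, within Clcn5, had a wider normal range, 6.86, 4.93 and 5.38, against 6.79, 6.62, 6.74, 6.61 and 5.76, so that normal replicate 1 lay above every array at 6 h (0.78, SE 0.408, limma p 0.0698, adjusted p 0.478). let-7e, of a family known for restraining growth genes such as Ras, read 7.22, 6.71 and 6.80 against 7.06, 7.27, 7.19, 7.14 and 7.06 (0.23, SE 0.116, limma p 0.0597, adjusted p 0.453). let-7a read 11.14, 10.98 and 11.02 against 11.11, 11.15, 11.31, 11.24 and 11.16 (0.15, SE 0.0800, limma p 0.0808, adjusted p 0.485) and stood at 0.00 under quantile scaling and in the deposited values. For both of these, normal replicate 1 lay among the arrays at 6 h and the other normal arrays below all of them. The rest of the named higher miRNAs were miR-15b (0.23), miR-223 of myeloid cells (0.31), miR-125a-5p (0.18) and miR-352 (0.32), with adjusted p of 0.509 for the first and 0.584 for the others, and miR-352, at the floor on 4 of the 8 arrays, turned to -0.04 under quantile scaling.

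**Figure D2:**
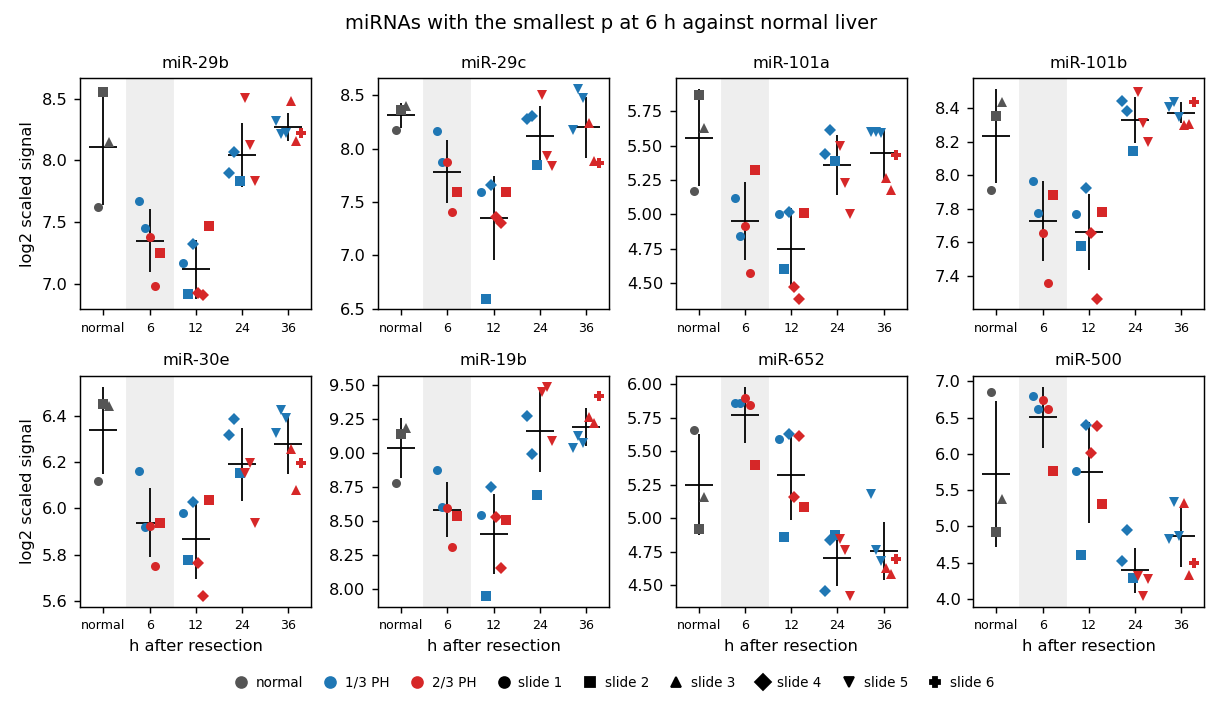
Each panel shows 1 miRNA on the log2 scale in normal liver and at 6, 12, 24 and 36 h, with colour for the operation, marker for the slide, and line for the mean with SD. At 6 h, shaded, the first 6 lie mostly below normal liver, although miR-101a and miR-30e turned higher under normexp and miR-30e under the percentile over all probes, and miR-652 and miR-500 lie mostly above.

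Over all 127 members, 75 were higher and 52 lower at 6 h, with a median log2 difference of 0.06 beside 0.09 over all 144 tested. Of the 25 not detected on every array at 6 h, 18 counted as higher, with values that rest in part on the imposed floors, and among the 102 detected on all 8 arrays 57 were higher and 45 lower (median 0.04). With a floor of 1, 63 of the 127 were higher and 64 lower (median -0.02). The range ran from -0.76 to 1.19 and the median size was 0.17. Over the 127, the median SE was 0.188 and the median half-width of the 95% interval 0.39. By the study's fold limits, 34 members (26.8%) lay outside, 20 over 1.2-fold and 14 under 0.8-fold, of which 9 and 12 were detected on all 8 arrays. Those over 1.2-fold that were not included miR-455*, miR-331 and miR-200a, which turned lower with a floor of 1 (-0.28, -0.37 and -0.43). The scaling moved the middle of this distribution: the median was 0.48 with the percentile over all probes, 0.33 with normexp, -0.01 with quantile scaling, -0.04 with no scaling (55 higher and 72 lower) and -0.11 in the deposited values. The split of the miRNAs with unadjusted p under 0.05 moved with it, from 1 higher and 14 lower to 11 and 0 with the percentile over all probes, 13 and 8 with the total gene signal, 2 and 15 with the total signal, 2 and 14 with quantile scaling, 1 and 16 in the deposited values, 0 and 2 with no scaling, and 0 and 1 with normexp.

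**Figure D3:**
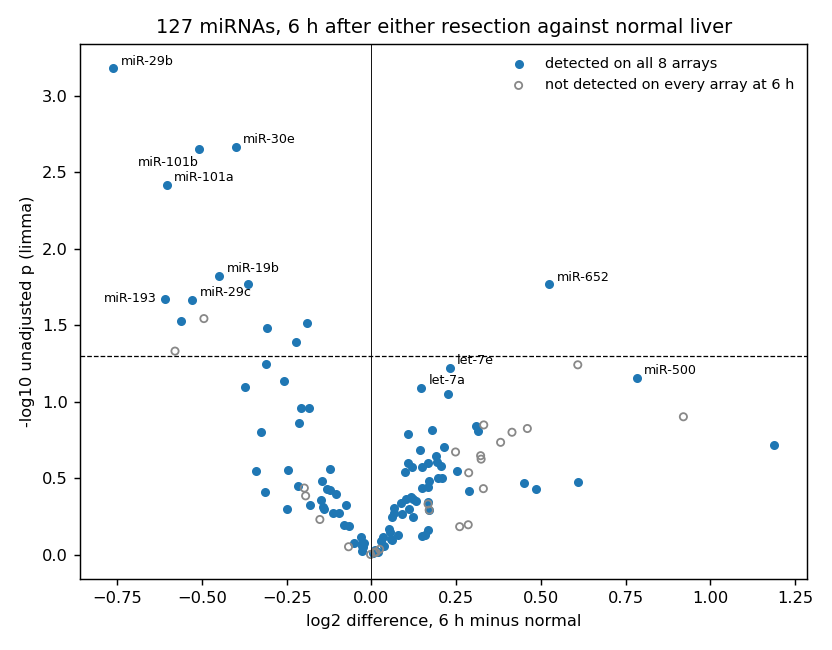
Each point is 1 of the 127 members, with the log2 difference at 6 h from normal liver across and the -log10 unadjusted limma p upward, filled where detected on all 8 arrays and open otherwise, and the dashed line at an unadjusted p of 0.05. The small p-values lie on the lower side in this scaling, a split that moved to 11 higher and 0 lower with the percentile over all probes.

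The count of calls depended on normal replicate 1 and on the fit. Without normal replicate 1, 5 miRNAs passed and all were lower, namely miR-29b (-1.01, adjusted p 0.00342), miR-101b (-0.67, 0.0150), miR-30e (-0.51, 0.0189), miR-101a (-0.80, 0.0197) and miR-19a, which is not counted as support since it entered through the normal side and has values at the floor. With arrays weighted by quality in limma, 8 passed, 7 lower (miR-19a again among them) and miR-652 higher (0.60, adjusted p 0.0446). With only the 82 miRNAs detected on all 26 arrays, 3 passed, miR-29b (adjusted p 0.0406), miR-30e (0.0451) and miR-101b (0.0451). Within slide 1, with normal replicate 1, miR-29b differed by -0.25, and within slide 2, with normal replicate 2, by -1.30. miR-101b differed by -0.23 and -0.47 in the same order, miR-101a by -0.31 and -0.55, miR-30e by -0.18 and -0.51, miR-652 by 0.20 and 0.48, and miR-500 by -0.17 and 0.83. With the slide as a block, 0 passed and 5 had an unadjusted p under 0.05, among them miR-29b (-0.66, limma p 0.0127). Without the 3 arrays with many non-uniform spots, 0 passed and 11 had an unadjusted p under 0.05, and miR-29b differed by -0.79.

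Base composition moved with the difference as well. Across the 87 members that had a matched sequence and were detected on all 8 arrays, the GC share of the mature sequence correlated with the log2 difference at 0.28 (n = 87), with -0.00 within slide 1 and 0.30 within slide 2. The points share the same 8 arrays, and the correlation is a description. The part of base composition in the differences was not tested.

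The miRNA groups of the lists can be read beside the median of 0.09 over all tested. All 8 members of the let-7 family were higher (0.06 to 0.23, median 0.12), with 5 higher and 1 lower under quantile scaling, 4 higher and 2 lower in the deposited values and 7 of 8 higher with no scaling. All 5 of the miR-15/16 family, which restrain cyclins, were higher (median 0.19), and their median stayed above zero under every scaling. The 5 of the miR-10, miR-99, miR-100 and miR-125 families were higher under this scaling (median 0.15), with a median of -0.04 in the deposited values. Of these, miR-100 was detected on 6 of 8 arrays and entered through the normal side. It turned to -0.17 with a floor of 1, -0.13 under quantile scaling, -0.20 with the total gene signal and -1.69 in the deposited values. Of the 9 liver-abundant miRNAs, 8 were lower (median -0.14), while 8 were higher with the percentile over all probes (median 0.28). The 9 members of the miR-17 to miR-92 and related clusters, which promote growth, split into 4 higher and 5 lower (median -0.02), and 8 of them were higher under normexp (median 0.26), 7 with the percentile over all probes (0.40) and 5 with the total gene signal (0.01). Among them miR-19a (lower) and miR-17-5p (higher) were each detected on 7 of 8 arrays and entered through the normal side. miR-17-5p turned to -0.16 with a floor of 1, -0.13 under quantile scaling, -0.14 with the total gene signal and -1.01 in the deposited values. The 12 cell cycle miRNAs that the study transfected, chosen by it on these samples, were 5 higher and 7 lower (median -0.02), turning to 0.23 under normexp, 0.40 with the percentile over all probes and 0.05 with the total gene signal. The miR-26 family (0.02) and the miR-23/27/24 clusters (0.01) lay near zero and turned below it under no scaling, the total signal and the deposited values, the former under quantile scaling too.

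Groups tied to states or to other cells were small. The metabolic group around miR-33, miR-103 and miR-107 (4 of 7 members) had a median of 0.07, turning to -0.03 with no scaling and -0.09 in the deposited values. Early regeneration miRNAs of other work (5 of 11) had a median of 0.09, turning to -0.02 with no scaling. Among these, miR-21, which is known for rising during liver regrowth, read 12.12, 12.70 and 12.33 in normal liver and 12.29, 12.42, 12.28, 12.31 and 12.22 at 6 h, with the groups overlapping. Hypoxia and stress miRNAs (4 of 7) had a median of 0.05, turning to -0.06 with no scaling and -0.00 in the deposited values. miR-130a, the 1 member of the family of miR-130 and miR-301, was at 0.14, and miR-181a, the 1 member of the miR-181 family, at 0.21, both higher under every scaling. Leukocyte miRNAs (median -0.18) were higher under normexp (0.34) and the percentile over all probes (0.24), with miR-142-3p at -0.56 (0.19 under normexp) and miR-146a at 0.17 (-0.00 in the deposited values). The summed leukocyte signal in log2 was 7.93, 8.11 and 7.83 in normal liver and 7.97, 8.01, 8.03, 7.87 and 7.91 at 6 h. Its groups overlapped, as did those of endothelium, where miR-126 read 9.42, 9.11 and 9.15 against 9.14, 9.24, 9.27, 9.03 and 9.12 (-0.07, turning to 0.36 with the percentile over all probes, 0.02 under quantile scaling and 0.05 with the total gene signal). Of the red cell miRNAs, 1 of 2 was a member, miR-451 (-0.32, turning to 0.23 under normexp and 0.11 with the percentile over all probes). The stellate and smooth muscle list (median 0.16) turned to -0.02 with a floor of 1, -0.03 under quantile scaling and -0.14 in the deposited values. The 2 members of the miR-200 family were at a median of 0.25, turning to -0.13 with a floor of 1, -0.09 with the total gene signal and -1.56 in the deposited values.

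**Figure D4:**
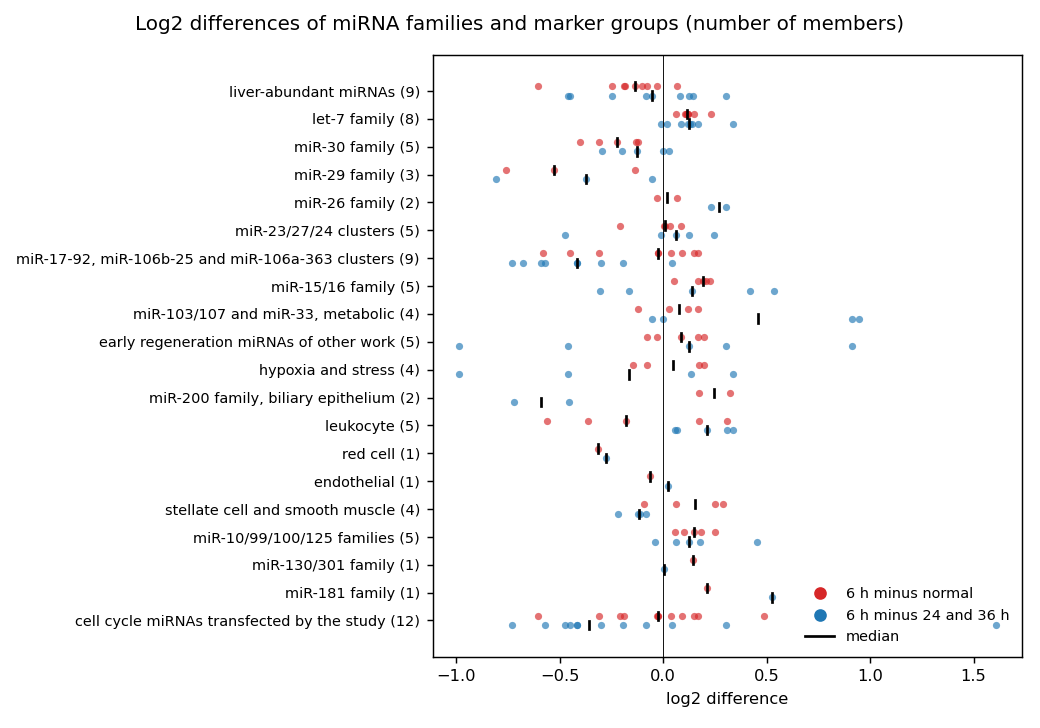
Points are the members of each list on the log2 difference axis, with 6 h against normal liver red, 6 h against 24 and 36 h blue, and black bars for medians. The miR-29 members lie to the left and the let-7 and miR-15/16 members to the right in red, while miR-30, also to the left, turned to the right under normexp and the percentile over all probes.

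Under this scaling the 2 operations, taken separately, gave few differences with small p at 6 h, and they share the 3 normal arrays. After 1/3 PH, 0 of 144 passed (0.0%) and 8 had an unadjusted p under 0.05 (5.56%), 4 higher and 4 lower, with a lowest adjusted p of 0.765. After 2/3 PH, 0 passed (0.0%) and 15 had an unadjusted p under 0.05 (10.4%), 1 higher and 14 lower, with a lowest adjusted p of 0.0535. Those splits also moved with the scaling, for 1/3 PH to 97 higher and 0 lower with the percentile over all probes, 8 and 2 with the total gene signal, 2 and 5 under quantile scaling, 1 and 0 with no scaling, 0 and 0 under normexp and 0 and 24 in the deposited values (median -0.28), and for 2/3 PH to 9 and 9 with the total gene signal, 2 and 2 under normexp, 0 and 3 with no scaling and 0 and 0 with the percentile over all probes. The median over members was 0.01 (0.06 over all tested) after 1/3 PH and 0.06 (0.10 over all tested) after 2/3 PH. With the percentile over all probes the median was 1.19 after 1/3 PH and -0.03 after 2/3 PH, and after 2/3 PH it was 0.54 under normexp and -0.12 with no scaling.

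miR-29b again led after 2/3 PH, at -0.90 (SE 0.210, limma p 0.000371, adjusted p 0.0535), beside -0.55 after 1/3 PH (SE 0.235, limma p 0.0308). miR-101b (-0.60) and miR-30e (-0.47) followed after 2/3 PH, both with adjusted p 0.0703 in limma, and miR-30e turned to 0.32 under normexp. Higher after 2/3 PH were let-7a (0.19), miR-652 (0.47) and miR-335 (0.48), all with adjusted p 0.405 in limma, miR-335 being at the floor on normal replicate 1 and 2/3PH 6H replicate 2. After 1/3 PH, miR-702-3p had the largest named value, 1.99 (SE 0.718, limma p 0.0122). Its values were 4.21, 3.48 and 4.27 in normal liver and 4.59 and 7.36 after 1/3 PH, so that 1 of the 2 arrays carried it. That array was replicate 2, with 464 non-uniform spots. miR-652 (0.61) and miR-15b (0.34) were higher too, and miR-150 (-0.48) and miR-101a (-0.58) lower, the latter turning to 1.02 with the total gene signal and 0.61 in the deposited values. With the percentile over all probes, miR-150 turned to 0.70, miR-101a to 0.61 and miR-29b to 0.63.

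Calls after 2/3 PH depended on single arrays. Without normal replicate 1, 5 passed, led by miR-29b (-1.15, adjusted p 0.00328) and miR-101b (-0.76, adjusted p 0.00956), and without 1/3PH 12H replicate 2, 5 passed, among them miR-29b, miR-101b and miR-30e (adjusted p 0.0353). Only miR-29b passed without 2/3PH 12H replicate 3 (adjusted p 0.0332), without 2/3PH 24H replicate 1 (0.0357) or without 2/3PH 24H replicate 3 (0.0415). After 1/3 PH, without 1/3PH 6H replicate 1, miR-702-3p stood at 3.37. That value rests on replicate 2 alone, the array with 464 non-uniform spots.

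Between the operations, 0 of 144 passed at 6 h (0.0%), and 3 had an unadjusted p under 0.05 (2.08%), 0 higher and 3 lower after 2/3 PH. miR-451, the miRNA of red cells, had the smallest p. It read 7.63 and 6.66 after 1/3 PH and 5.56, 5.96 and 5.75 after 2/3 PH, with normal liver at 6.78, 6.52 and 6.59. All 3 arrays after 2/3 PH lay below normal liver, while after 1/3 PH 1 array lay above it and the other inside its range (-1.39, SE 0.445, 95% interval -2.32 to -0.46, limma p 0.00549, adjusted p 0.791). The difference of miR-451 moved to -0.14 under normexp and -2.66 with the percentile over all probes. The amount of blood in the tissue was not tested, and miR-144, from the same transcript, was not detected. miR-106b differed by -0.36 (limma p 0.0437, adjusted p 0.946), turning to 0.43 under normexp and 0.10 in the deposited values, and miR-93 by -0.24, turning to 0.61 under normexp. miR-872 (0.31), miR-23b (0.25) and miR-98 (0.22) were higher after 2/3 PH, and with the percentile over all probes they turned to -0.96, -1.02 and -1.05. The median over members was -0.04, beside -0.05 over all tested, and it was -1.30 with the percentile over all probes, 0.51 under normexp, 0.24 in the deposited values and -0.21 with no scaling. The 3 with unadjusted p under 0.05 became 20 higher and 1 lower in the deposited values and 0 and 115 with the percentile over all probes, where 89 passed.

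Against the next time point, the 6 h livers still held miRNAs that were lower at 12 h. miR-378 and miR-378*, the 2 arms of a hairpin within a gene of mitochondrial metabolism, miR-151 and miR-195 were higher at 6 h, and miR-200b was lower. Of 144 tested, 5 passed (3.47%), 4 higher at 6 h (2.78%) and 1 lower (0.694%). At an unadjusted p under 0.05 there were 22 (15.3%), 15 higher (10.4%) and 7 lower (4.86%). All 5 were members, and the median over members was 0.00, beside -0.01 over all tested.

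miR-378 read 7.18 and 7.57 after 1/3 PH and 7.59, 7.61 and 7.57 after 2/3 PH at 6 h, near normal liver at 7.43, 7.42 and 7.17, while the 6 arrays at 12 h ran from 6.17 through a median of 6.48 to 6.95. No array at 12 h reached an array at 6 h. The difference was 0.99 (SE 0.179, limma adjusted p 0.00334, 1.99-fold, 5 of 5 arrays above all at 12 h). miR-378* read 4.61, 5.18, 5.11, 5.15 and 5.12 at 6 h against 3.70 to 4.60 at 12 h, where the highest value was the floor of the dim array (0.85, SE 0.175, limma adjusted p 0.00772, 5 of 5 above). miR-151, which lies in the gene of focal adhesion kinase in mammals, read 7.17, 7.29, 7.25, 7.35 and 7.27 at 6 h against 6.47 to 6.99 (0.63, SE 0.139, limma adjusted p 0.0115, 5 of 5 above). miR-195, of the family that restrains cyclins, read 8.70, 8.75, 8.57, 8.79 and 8.50 against 7.63 to 8.35 (0.54, SE 0.134, limma adjusted p 0.0249, 5 of 5 above). For all 4, the values at 6 h overlapped with those of normal liver, and the arrays at 12 h lay lower. miR-497, the neighbour of miR-195 (chr10:55450509-55450529) at chr10:55450172-55450193, read 8.14, 8.16, 8.14, 8.22 and 8.05, and its difference of 0.41 had an adjusted p of 0.0578 in limma. It was named after its values were seen.

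miR-200b, which keeps epithelial identity by targeting Zeb genes and is known from biliary cells, read 4.88, 4.93, 4.87, 5.33 and 5.32 at 6 h and 5.45 to 6.57 at 12 h. All 5 arrays at 6 h lay below all 6 at 12 h (-0.82, SE 0.212, limma adjusted p 0.0282, 0.566-fold), and the direction turned to 0.29 with the percentile over all probes. miR-194 (-0.24) and miR-1224 (-0.31) had adjusted p of 0.230 in limma and turned to 0.17 and 0.10 with no scaling and to 0.87 and 0.80 with the percentile over all probes. Within slide 1 and slide 2, the differences were 1.16 and 0.90 for miR-378, 0.95 and 0.53 for miR-378*, 0.74 and 0.53 for miR-151, 0.35 and 0.65 for miR-195, and -1.04 and -0.69 for miR-200b. With the slide as a fixed block 0 passed, with an adjusted p of 0.239 for miR-378 (0.97), and with the scan day as a block 7 passed.

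Single arrays and scalings moved these calls. Without the dim 1/3PH 12H replicate 2, 7 passed and miR-200b did not (-0.68, adjusted p 0.0830), while miR-378 was at 1.03 (adjusted p 0.00211), miR-378* at 0.93, miR-151 at 0.70 and miR-195 at 0.44 (adjusted p 0.0321). Without 1/3PH 6H replicate 1, 3 passed, with miR-195 at an adjusted p of 0.0688 and miR-200b at 0.0939, and without 1/3PH 6H replicate 2, 3 passed, with 0.0849 and 0.0903. miR-195 was also lost without 2/3PH 6H replicate 2 (adjusted p 0.0650), and miR-200b without 2/3PH 6H replicate 1 (0.0827), 1/3PH 12H replicate 1 (0.0567) or 1/3PH 12H replicate 3 (0.0707). Without the 3 arrays with many non-uniform spots 0 passed, and miR-378 stood at 1.07 (adjusted p 0.0707). The called split of 4 higher and 1 lower became 133 and 0 with the percentile over all probes, where the median was 1.11, 3 and 0 with no scaling (median 0.41), 7 and 2 under quantile scaling, 5 and 2 with the total gene signal, 5 and 3 with a floor of 1, 1 and 2 in the deposited values and 0 and 0 under normexp. The metabolic list had a median of 0.48 against 12 h, with 4 of 4 members higher, 3 of 4 under quantile scaling and 2 of 4 in the deposited values, and 2 of the 4 were the arms of the miR-378 hairpin already named.

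Against 24 and 36 h, with 12 arrays on the later side, more miRNAs passed than in the other comparisons under this scaling, though not with the percentile over all probes (44, beside 133 against 12 h) or with no scaling (3 and 3). The growth miRNAs miR-106b and miR-93 of the cluster within Mcm7, and the p53 target miR-34a, were lower at 6 h, together with miR-29b and miR-101b, and miR-652, miR-500 and miR-10a-5p were higher. Of 144 tested, 37 passed (25.7%), 17 higher at 6 h (11.8%) and 20 lower (13.9%). At an unadjusted p under 0.05 there were 49 (34.0%), 21 higher (14.6%) and 28 lower (19.4%). Of the 37, 36 were members. The median over members was -0.00, beside -0.01 over all tested.

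miR-106b read 5.86, 5.66, 5.47, 5.27 and 5.46 at 6 h, while the 12 arrays at 24 and 36 h ran from 5.85 through a median of 6.23 to 6.72. Only the first array at 6 h reached the later range (-0.73, SE 0.0976, limma adjusted p 4.49e-05, 0.602-fold, 4 of 5 below all later arrays). miR-93 read 4.45, 4.72, 4.47, 4.33 and 4.23 against 4.35 to 5.75, so the ranges overlapped, with replicate 2 of 2/3 PH at its floor (-0.57, SE 0.0840, limma adjusted p 4.49e-05, 5 of 5 below the later median of 4.97), and it turned to 0.11 under normexp and 0.14 with the percentile over all probes. miR-34a read 5.94, 6.14, 5.67, 6.01 and 5.75 against 6.02 to 7.78, with a normal range of 5.64 to 5.75 (-0.99, SE 0.140, limma adjusted p 4.49e-05, 0.505-fold, 4 of 5 below all later arrays). miR-93 and miR-34a at 6 h overlapped or adjoined normal liver, and all 3 were higher at 24 and 36 h. Against 12 h, miR-106b, miR-93 and miR-34a differed by -0.02, -0.11 and -0.35, and none passed. With no scaling these turned to 0.38, 0.30 and 0.06.

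The miRNAs named against normal liver were read against 24 and 36 h as well, in a comparison that shares the arrays at 6 h. miR-29b at 6 h lay below all 12 later arrays, which ran from 7.83 to 8.51 (-0.81, SE 0.137, limma adjusted p 0.000147, 5 of 5 below), and at 12 h it ran from 6.91 to 7.47. Against normal liver it stood at -0.76 at 6 h, -0.99 at 12 h, -0.06 at 24 h and 0.16 at 36 h, with the same normal arrays in each. miR-101b lay below all arrays at 24 and 36 h, at 8.15 to 8.50 (-0.63, SE 0.105, limma adjusted p 0.000147, 5 of 5 below), and turned to 0.08 with the percentile over all probes. miR-101a (-0.45), miR-19b (-0.59), miR-30e (-0.30) and miR-193 (-0.59) passed too, with adjusted p from 0.00109 to 0.0152 in limma, but with the percentile over all probes they turned to 0.26, 0.12, 0.41 and 0.11. Under normexp miR-101a turned to 0.08 and miR-30e to 0.06, and with the total gene signal miR-101a turned to 0.11. miR-29c (-0.37, turning to 0.34 with the percentile over all probes) did not pass, nor did miR-150, which was higher at 6 h (0.21, limma adjusted p 0.146). Against 12 h, 6 h was not lower for miR-101b (0.07), miR-101a (0.21), miR-30e (0.07), miR-19b (0.18) or miR-29c (0.43). In the deposited values miR-101b and miR-30e turned to -0.08 and -0.06. miR-193 (-0.40) and miR-150 (-0.21) were lower than at 12 h, turning to 0.01 and 0.19 with no scaling. None of these passed against 12 h. miR-21 was lower at 6 h than later (-0.46, limma adjusted p 0.00756), with 12.22 to 12.42 at 6 h against 12.37 to 13.37, but turned to 0.25 with the percentile over all probes and stood at 0.00 under quantile scaling. These named beyond the first 3 each way were chosen after their values were seen.

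On the higher side, miR-652 at 6 h lay above all later arrays, which ran from 4.42 to 5.18 (1.05, SE 0.147, limma adjusted p 4.49e-05, 2.07-fold, 5 of 5 above). miR-500 lay above 4.04 to 5.34 (1.87, SE 0.297, limma adjusted p 9.06e-05, 3.66-fold, 5 of 5 above). miR-10a-5p, of a family in the Hox clusters, read 7.40, 7.48, 7.51, 7.64 and 7.54 against 6.70 to 7.28 (0.45, SE 0.0654, limma adjusted p 4.49e-05, 5 of 5 above). All 3 separated fully from the later arrays, none of which lay on slide 1. The 4 arrays at 6 h on slide 1 read 5.85 to 5.90 for miR-652 and 6.61 to 6.79 for miR-500. The array at 6 h on slide 2 read 5.40 and 5.76. Normal replicate 1, on slide 1, also lay above all later arrays for both miRNAs. The part of the slide in these differences was not tested. The 5 miRNAs that differed from 12 h stood here at 0.91 (miR-378), 0.95 (miR-378*), 0.65 (miR-151), 0.54 (miR-195) and -0.72 (miR-200b, turning to 0.01 under normexp), in a comparison that shares the arrays at 6 h.

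**Figure D5:**
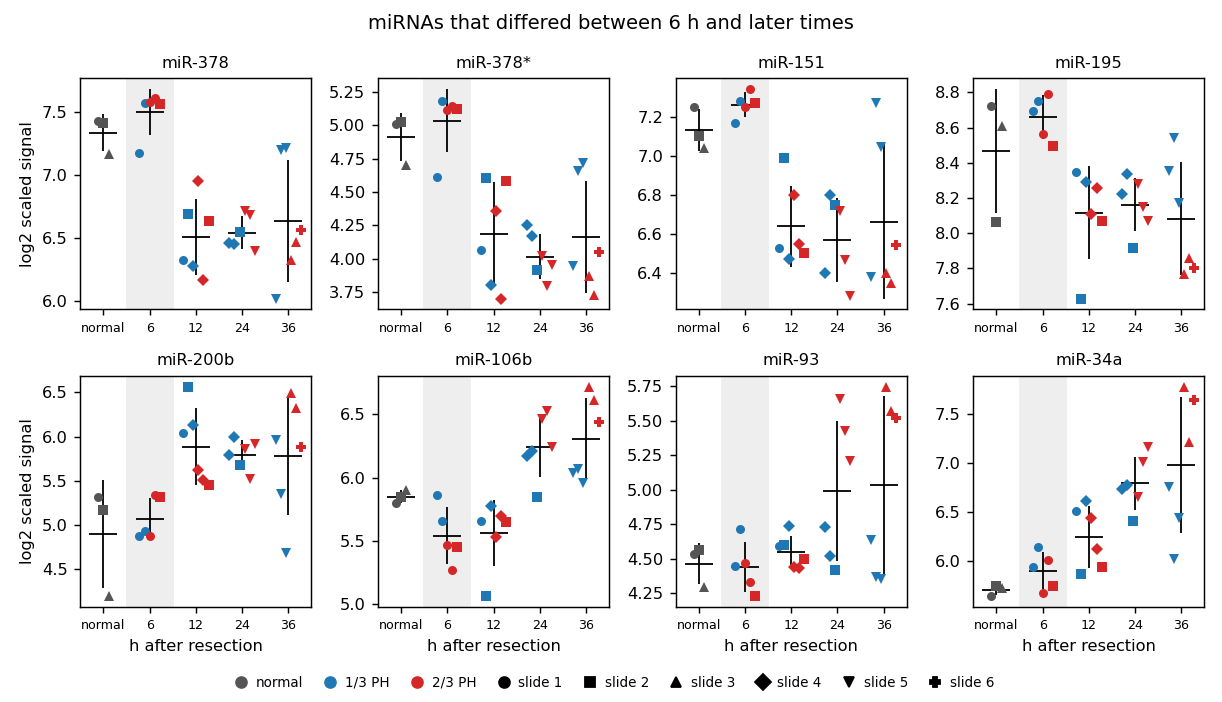
Each panel shows 1 miRNA on the log2 scale in normal liver and at 6, 12, 24 and 36 h, with colour for the operation, marker for the slide, and line for the mean with SD. At 6 h, shaded, the first 4 lie at the normal level and above 12 h. miR-200b lies mostly below the later hours, and the last 3 mostly below 24 and 36 h. Against 12 h the last 3 differed by -0.02, -0.11 and -0.35, in panel order. Against 24 and 36 h, miR-93 turned higher at 6 h under normexp and the percentile over all probes. miR-200b turned higher under the latter against 12 h.

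The lists can be read beside the 25.7% of all tested miRNAs that passed against the later hours. The growth clusters miR-17 to miR-92 and relatives were lower in 8 of 9 members (median -0.42, 4 passed), turning to 0.06 under normexp and 0.29 with the percentile over all probes. The cell cycle miRNAs of the study (median -0.36) turned to 0.07 and 0.35 under the same 2. The study chose them on its samples at 24 h, which are part of this comparison. The miR-26 family (median 0.27, 2 of 2 passed) and miR-181a (0.52, passed) were higher under every scaling. Medians above zero under every scaling, with members on both sides, were those of let-7 (0.12, 7 higher and 1 lower, 2 passed), miR-15/16 (0.14, 3 higher and 2 lower, of which 2 and 1 passed) and the metabolic group (0.46, 2 higher and 2 lower). The 2 higher ones of the last were the arms of the miR-378 hairpin, and both passed. The miR-29 family (-0.37, 1 of 3 passed) turned to 0.34 with the percentile over all probes, and the miR-200 family (-0.59, 1 of 2 passed) to 0.05 under normexp and 0.12 with the percentile over all probes. Leukocyte miRNAs (0.21) and stellate miRNAs (-0.12, turning to 0.12 under normexp and 0.59 with the percentile over all probes) had none that passed.

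Slide and day were not balanced between 6 h and the later hours, since none of the 12 later arrays lay on slide 1 and 1 lay on slide 2. With the scan day as a block, 41 passed. Within scan day 1 and day 3 the differences were -0.78 and -0.78 for miR-29b, -0.65 and -0.69 for miR-106b, -0.76 and -1.28 for miR-34a, 1.12 and 0.61 for miR-652 and 2.05 and 1.36 for miR-500. Day 1 set 4 arrays at 6 h, all on slide 1, against 8 later arrays on slides 4 and 5. Slide and hour cannot be told apart there. Day 3 set 1 array at 6 h against 2 later ones. miR-101a differed by -0.58 and -0.09, and miR-15b by -0.02 and -0.71. Without the 3 arrays with many non-uniform spots, 23 passed, 9 higher and 14 lower, among them miR-106b, miR-93 and miR-34a, miR-29b, miR-652, miR-500 and miR-10a-5p, but not miR-195 or miR-200b. The called split of 17 higher and 20 lower became 44 and 0 with the percentile over all probes, where the median was 0.71, 29 and 16 with the total gene signal (median 0.12), 18 and 27 with a floor of 1, 9 and 18 in the deposited values, 3 and 0 with no scaling, and 2 and 2 under normexp (median 0.14).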

How the data were processed

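Total RNA of right liver lobes from male Sprague-Dawley rats was read on 26 1-colour Agilent miRNA arrays (13540 spots, 1644 probes, 677 miRNAs), 3 of normal liver, 2 and 3 at 6 h after 1/3 and 2/3 PH, 6 at 12 h and 12 at 24 and 36 h. The authors excluded 1 further 1/3 PH array for poor quality. The deposited scan files hold Feature Extraction intensity values, and the deposited matrix holds log2 values normalized by the authors with a method not given in the sources used here, nor is a test for 6 h. Here the processed spot signals, which the software had background-subtracted, were averaged per probe without outlier spots and summed per miRNA (1 to 4 probes each). They were scaled by the 75th percentile of the 109 probes whose signal cleared background throughout the 26 arrays, raised to the array's lowest scaled signal well above background, and taken to log2. No spot was saturated.

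The 9 groups of operation and time were fitted together in limma 3.58.1 (R 4.3.3, with version 1.17.8 of data.table) over 144 miRNAs, with p adjusted by Benjamini-Hochberg over these 144 and contrasts that average the operations. The fit had 17 residual and 2.32 prior degrees of freedom and a prior SD of 0.231. Per-array values were tested by exact permutation. Summaries and plots were made in matplotlib 3.10.9, scipy 1.17.1, pandas 2.3.3 and numpy 2.4.6 under Python 3.11.15, and the fit was tested on simulated data. Mature sequences and positions came from RefSeq on GRCr8, in which 22 of the 127 members had no match, and the host gene's strand was not compared.

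Named miRNAs were, among those detected on all 8 arrays, the 8 higher and 8 lower with the smallest p against normal liver, and in each other comparison the 3 higher and 3 lower with the smallest p. Lists were described by counts, with up to 4 members named. Members and lists were chosen with earlier results of these data known. Alternatives tried were the scaling (none, total signal, quantile, percentile over all probes), the background correction (normexp, offset 50), the software's total gene signal, the deposited values, a floor of 1, 3 filters on dim miRNAs, array weights, a variance trend, slide or scan day as a block, fewer groups in the fit, each array left out in turn, unadjusted p and the study's fold limits. Leaving out the 3 arrays at 6 h with over 100 non-uniform spots was chosen after seeing the data. Where 1 array of a group was left, the fit assumed that it varies like the other groups.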

Additional observations from a re-analysis of the deposited data

Results flagged for a closer look

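Among the 5 arrays at 6 h, 3 miRNAs of 2/3PH 6H replicate 3 lay far from the others: miR-652 at 5.40 (5.85 to 5.90 on the others), miR-500 at 5.76 (6.61 to 6.79) and miR-335 at 5.10 (4.10 to 4.33), in log2. For miR-335 both ends of the range of the others were array floors, so that distance is one from imposed values. 2/3PH 6H replicate 3 was also the only array at 6 h on slide 2 and scan day 3, the others being on slide 1 and day 1. The part of slide and day in these values was not tested. 1/3PH 6H replicate 1 was far from the others in miR-378 at 7.18 (7.57 to 7.61) and in summed signal at 87568.5 (68373.9 to 72076.6). Of 42 groups of values tested, 5 had such a far value, and chance flags about 1 in 20 groups where groups are independent. The groups here share arrays, and 3 of the 5 far values came from 2/3PH 6H replicate 3. The count therefore cannot be weighed against that rate.

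Among the named miRNAs of each comparison, differences between time points that passed the adjusted limma test included, for 6 h minus 12 h, miR-378 (0.99), miR-151 (0.63), miR-195 (0.54) and miR-200b (-0.82). For 6 h minus 24 and 36 h, where 37 passed, the named ones were miR-652 (1.05), miR-10a-5p (0.45), miR-500 (1.87), miR-106b (-0.73), miR-34a (-0.99) and miR-93 (-0.57).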

How the results depend on the processing

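The cause of each change below was not tested. Against normal liver at 6 h, 0 passed and 42 of 47 alternatives left the count unchanged, the others being 3 among miRNAs detected on all 26 arrays, 8 with array weights, 15 by unadjusted p, 34 by fold limits, and 0 to 5 when 1 array was left out. After 1/3 PH the count of 0 became 39 with the percentile over all probes, 8 by unadjusted p, 37 by fold limits, and 0 to 1 when 1 array was left out. After 2/3 PH it became 2 with a floor of 1, 3 among miRNAs detected on all 26 arrays, 1 among those detected in normal liver or at 6 h, 1 with a variance trend, 7 with array weights, 15 by unadjusted p, 35 by fold limits, and 0 to 5 when 1 array was left out. Between the operations it became 89 with the percentile over all probes, 3 by unadjusted p, 25 by fold limits, and 0 to 0 when 1 array was left out. Against 12 h the count of 5 became 0 with normexp, 3 with no scaling, 133 with the percentile over all probes, 9 with quantile scaling, 8 with a floor of 1, 3 in the deposited values, 0 with the slide as a fixed block, 0 without the 3 arrays with many non-uniform spots (chosen after seeing the data), and 3 to 7 when 1 array was left out. Against 24 and 36 h the count of 37 became 4 with normexp, 3 with no scaling, 23 without those 3 arrays, and 31 to 45 when 1 array was left out, and the slide as a fixed block could not be fitted. The difference in detected miRNAs ran from -22.0 to -15.6 and that in summed signal from -10298 to 3825 when 1 array was left out. No paired analysis was possible because replicate numbers only name the samples.

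Of the values of named miRNAs against normal liver under the alternatives, 723 of 748 kept direction and side of the threshold. Under normexp the direction turned against normal liver for miR-30e (0.15), miR-101a (0.20) and miR-150 (0.34), after 2/3 PH for miR-30e (0.32), between operations for miR-106b (0.43) and miR-93 (0.61), and against 24 and 36 h for miR-93 (0.11). With the percentile over all probes it turned against normal liver for miR-30e (0.0218) and miR-150 (0.0559), after 1/3 PH for miR-150 (0.70), miR-101a (0.61) and miR-29b (0.63), between operations for miR-872 (-0.96), miR-23b (-1.02) and miR-98 (-1.05), against 12 h for miR-200b (0.29), miR-194 (0.87) and miR-1224 (0.80), and against 24 and 36 h for miR-93 (0.14). With no scaling it turned against 12 h for miR-194 (0.17) and miR-1224 (0.10), with quantile scaling against normal liver for miR-352 (-0.0424), with the total gene signal after 1/3 PH for miR-101a (1.02), and in the deposited values after 1/3 PH for miR-101a (0.61) and between operations for miR-106b (0.10). Signal over background limited 29 members, which stood at the floor on at least 1 of the 8 arrays.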
